A study of Saccharomyces cerevisiae with 4 samples.

Results

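The genes RPL1A to RPL33B of *Saccharomyces cerevisiae* encode the cytosolic large ribosomal subunit proteins L1 to L33, and they were chosen here by systematic name. They make up 58 of the 6212 rows of the deposited table. Of these, 50 genes form 25 paralog pairs with an A and a B copy, and 8 genes are single-copy. The proteins assemble with ribosomal RNA in the nucleolus into the subunit that holds the peptidyl transferase centre and the tunnel through which the nascent chain leaves. In yeast, ribosomal protein genes are among the most highly transcribed genes, are controlled together through the factors Rap1, Fhl1, Ifh1 and Sfp1, and respond to nutrients and growth rate through the TOR and protein kinase A pathways. Most are kept as duplicate copies whose products are nearly identical.

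The study set a trk1 trk2 double mutant against the wild type, both labelled as strain BY4741. Trk1 and Trk2 form the high-affinity potassium uptake system. Both strains were grown to log phase at 28 °C, to an A600 of 0.6, in Translucent K-free medium with 15 µM potassium of its own, to which 50 mM KCl had been added, so the comparison asks what differs without the transporters when potassium is ample. Each of 4 dual-colour arrays carried mutant and wild-type cDNA made from 8 µg of total RNA, with the mutant in Cy5 on arrays 1 and 4 and in Cy3 on arrays 2 and 3. Experiment 1 is read here as arrays 1 and 2, and experiment 2 as arrays 3 and 4, each a dye-swapped pair. The sources used here do not say how many clones were used or how the genes were deleted. Equal masses of RNA were labelled, so the ratios compare shares of the RNA, and a change in total RNA per cell cannot be seen. The RNA came from whole cultures, so less of a transcript per cell and fewer cells with it cannot be told apart.

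Values below are log2 ratios of mutant over wild type, with base 2 assumed. The arrays gave between 4690 and 5403 values, and 4255 genes had a value on all 4. TRK1 read −6.13 and −4.60 on arrays 1 and 4, TRK2 read −4.23 on array 4, and both were empty on arrays 2 and 3. The direction of arrays 2 and 3 therefore rests on their correlation over 4255 genes with arrays 1 and 4, from 0.27 for arrays 2 and 4 to 0.80 for arrays 1 and 2. Experiment means were compared with 0 in limma over all 4255 genes, with p-values adjusted by the Benjamini-Hochberg method. Means carry limma's moderated standard error with n = 2 experiments.

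No RPL gene passed the test. Of the 56 members with a value on all 4 arrays, 0 were called higher and 0 lower at an adjusted p under 0.05 in limma, where 3.36% of all genes were called, 1.62% higher and 1.74% lower. A single member, RPL31B, had an unadjusted p under 0.05, beside 20.2% of all genes. The members lay close to 0: their median was −0.03, beside −0.04 for all genes, with 26 means above 0 and 30 below. Of the 56, 42 members (75.0%) had a mean within 0.2 of 0, a range that held 46.3% of all genes. Their means had an SD of 0.19 over genes, against 0.44 for all genes. The adjusted p was 0.0606 for RPL31B and 0.313 or more for every other member. A p that misses the threshold does not show that transcript levels were equal, and the standard errors of the members, from 0.16 to 0.20, leave room for modest differences.

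**Figure D1:**
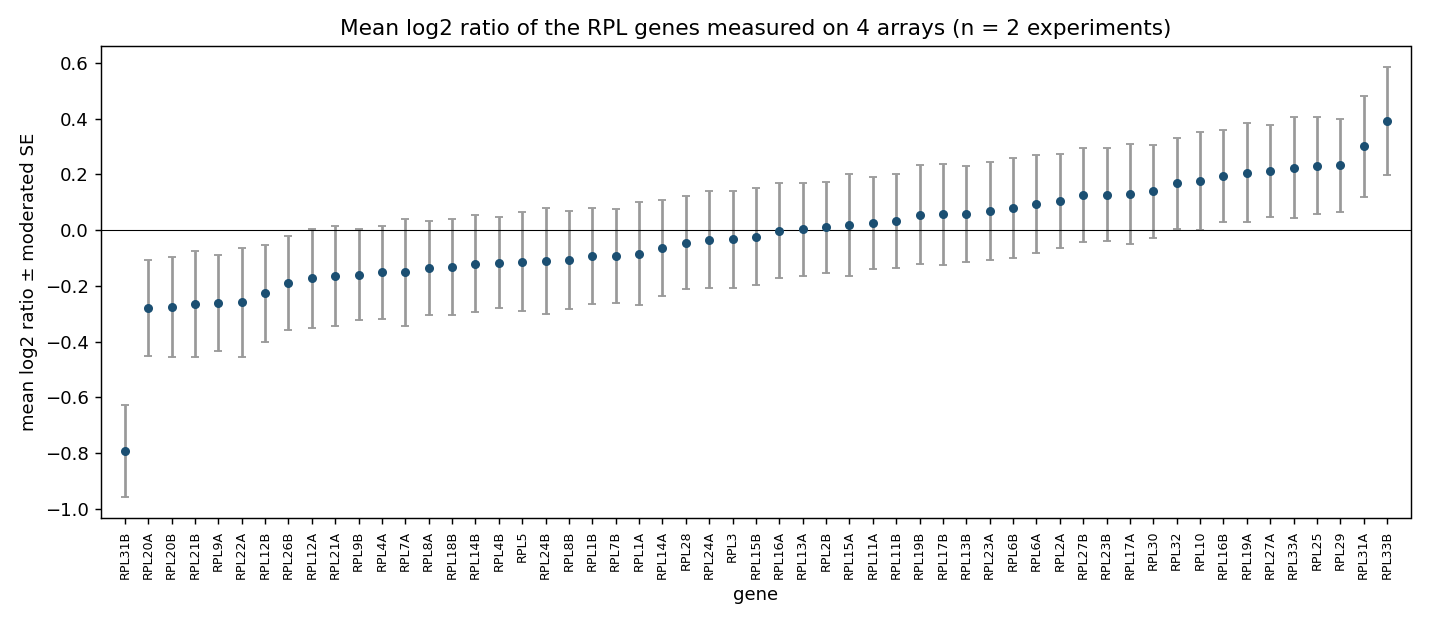
The vertical axis gives the mean log2 ratio of mutant over wild type for 55 of the 56 genes on 4 arrays, with bars for limma's moderated standard error (n = 2 experiments), and the horizontal axis orders the genes by mean. RPL31B stands at −0.79, below the next gene at −0.28, and RPL33B is the highest at 0.39.

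The small means hid large and shared differences between arrays. The median of the 56 members was −0.02 on array 1, −0.32 on array 2, −0.28 on array 3 and 0.55 on array 4. The same medians over all 4255 genes were −0.02, −0.09, −0.09 and 0.04. On array 4, 55 of 56 members were above 0, and on arrays 2 and 3 there were 53 and 46 members below 0. Of all 4255 genes, 2277 were above 0 on array 4, and 2476 and 2459 were below 0 on arrays 2 and 3. Array 4 gave the highest value for 53 of the 56 members, where it did so for 41.1% of all genes. In RPL3, RPL10 and RPL15A array 3 was the highest, but their array 4 values cannot be read, as described below. Only RPL31A and RPL19A were above 0 on all 4 arrays and RPL31B alone was below 0 on all 4, that is 2 and 1 of 56, where 17.5% and 21.1% of all genes met those rules. A member's SD over the 4 arrays had a median of 0.42, against 0.29 for all genes.

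**Figure D2:**
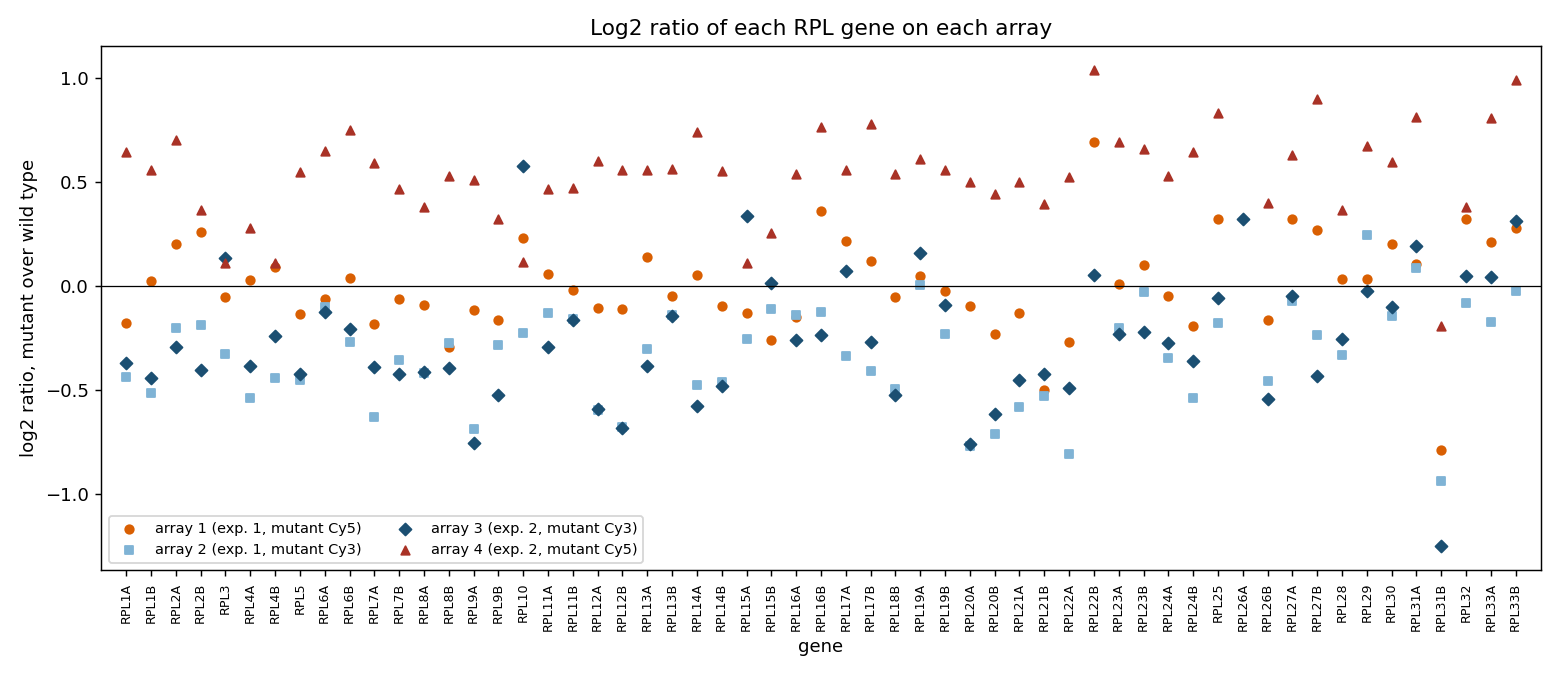
Each column is 1 of 57 of the 58 genes and each point its log2 ratio of mutant over wild type on 1 array, with warm colours for arrays that carried the mutant in Cy5. Points of array 4 lie at the top for 52 of the 55 drawn genes with 4 values, points of arrays 2 and 3 lie low, and RPL31B is the gene below 0 on every array.

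Part of the difference between arrays followed the dye of the mutant. Arrays 1 and 4 both carried the mutant in Cy5, yet their member medians were −0.02 and 0.55, so array 4 also stood apart within its dye. For 45 of the 56 members, or 80.4%, both arrays with the mutant in Cy5 lay above both arrays with the mutant in Cy3, without overlap, where 30.8% of all genes did so. RPL4B counts among the 45, although its array 4 value cannot be read, as described below. The reverse order was found for 0 members and for 10.7% of all genes. The mean ratio of the Cy5 arrays exceeded that of the Cy3 arrays by a median of 0.57 over the members, against 0.12 over all genes, and by more than 0.3 in 50 of the 56. No count above 0.3 was made over all genes. The excess was found in each experiment. Array 1 exceeded array 2 in 52 members with a median of 0.36, and array 4 exceeded array 3 in 53 members with a median of 0.86. Of all 4255 genes, 2598 had array 1 above array 2 and 2659 had array 4 above array 3, with medians of 0.09 and 0.16. Tested as a contrast of its own in limma over all genes, the dye difference gave 0 called members at an adjusted p under 0.05, 0% of all genes, and a smallest adjusted p of 0.527. At an unadjusted p under 0.05 it gave 21 of the 56 members, beside 8.84% of all genes. Whether signal brightness has a part in this dye difference was not tested, because scanner intensities were not used here.

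**Figure D3:**
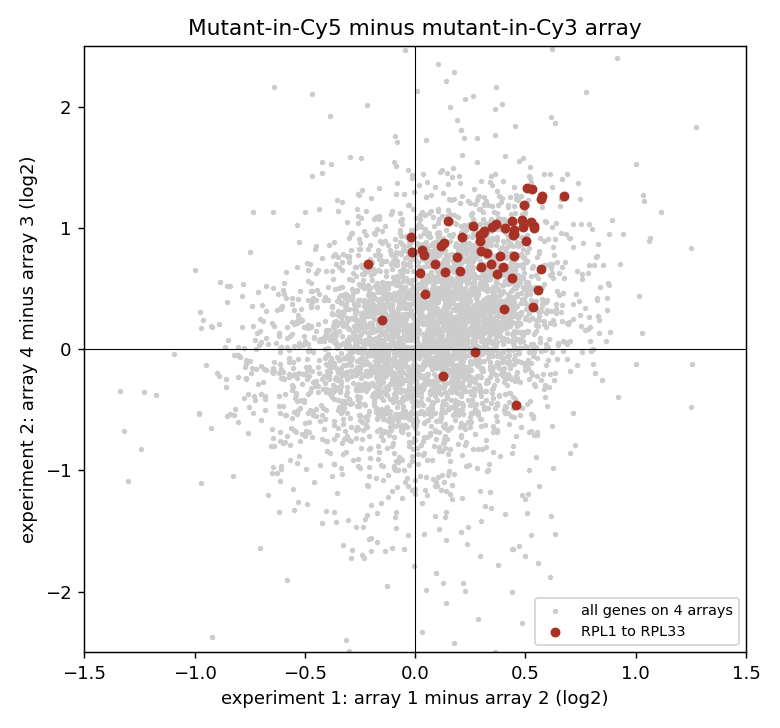
The horizontal axis gives array 1 minus array 2 and the vertical axis array 4 minus array 3, each the mutant-in-Cy5 array minus the mutant-in-Cy3 array of an experiment on the log2 scale. Red points are the 56 RPL genes and grey points all genes with 4 values, of which 37 lie outside the axes. The red points lie mostly above 0 on both axes, with medians of 0.36 and 0.86.

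The mean over a dye-swapped pair balances the dyes, and the experiments then stood on opposite sides of 0. In experiment 1 the members had a median of −0.18, with 15 of 56 above 0, and in experiment 2 a median of 0.13, with 44 of 56 above 0. All genes had medians of −0.05 and −0.02, with 1918 and 2031 of 4255 above 0. The median of the members was −0.21 when array 4 was left out, 0.16 without array 3, −0.10 without array 1 and 0.04 without array 2. Leaving out 1 array leaves its partner alone as an experiment, so the dyes are then not balanced. The median was below 0 without either mutant-in-Cy5 array and above 0 without either mutant-in-Cy3 array. The side of 0 on which the list lay thus changed with the experiment and with the array left out.

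Each member was also set against the member median of the same array. These deviations had a median SD over arrays of 0.13, against 0.42 for the ratios themselves, and 51 of the 56 members deviated by less than 0.25 on average. The median comes from these same genes, so the SD falls for any list that shifts together between arrays. No like SD was computed for another list. Among the 56, 12 members lay above the member median on all 4 arrays and 12 lay below it on all 4. No like count was made over all genes, so these counts cannot be read as a trait of the members. Over the 56 genes, which share probes and dyes between arrays, Pearson's r was 0.74 between arrays 2 and 3 and 0.60 between arrays 1 and 2, but 0.15 between arrays 3 and 4. Over all 4255 genes these were 0.69, 0.80 and 0.39. For arrays 1 and 3, 1 and 4, and 2 and 4 the members gave 0.57, 0.50 and 0.36, beside 0.55, 0.30 and 0.27 over all genes. The 0.15 includes RPL3, RPL4B, RPL10 and RPL15A, whose array 4 values cannot be read, as described below. Of these, RPL10 deviated from the member median by 0.86 on array 3 and −0.44 on array 4. The r without these genes was not computed. RPL31B had the lowest mean deviation, −0.77, followed by RPL20A at −0.26, and RPL33B had the highest at 0.41.

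RPL31A and RPL31B encode L31, which sits at the rim of the tunnel exit, and they formed the most unequal pair. RPL31B (YLR406C) read −0.79 on array 1, −0.94 on array 2, −1.25 on array 3 and −0.19 on array 4. Its mean of −0.79 ± 0.16 is a 1.73-fold lower ratio in the mutant, which did not pass (adjusted p = 0.0606 in limma). All arrays agreed in sign, and array 4 was the one nearest 0. The call depended on the fit: the adjusted p was 0.0201 with arrays 1 and 3 and arrays 2 and 4 as the pairs, 0.0339 without array 4, 0.123 without array 2 and 0.598 without array 3. The mean was −1.06 without array 4 and −0.53 without array 3, where 0 of all genes were called and limma gave 0 members at an unadjusted p under 0.05. In each fit without an array the dyes were not balanced. The Cy5 minus Cy3 difference of RPL31B, 0.60, was near the member median of 0.57. RPL31A (YDL075W) read 0.11, 0.09, 0.19 and 0.82 on arrays 1 to 4, a mean of 0.30 ± 0.18 (adjusted p = 0.401), with array 4 far above the others. RPL31A exceeded RPL31B by 0.89, 1.02, 1.44 and 1.01 on the 4 arrays. The mean difference, 1.09 ± 0.24 (SD, n = 4 arrays), is a 2.13-fold difference between the ratios of the copies. It was larger than the spread between arrays, at 0.96 in experiment 1 and 1.23 in experiment 2. The two-sided exact sign-flip permutation test gave p = 0.125, the smallest p that 4 arrays allow. This test and the SD count the dye-swapped arrays of an experiment as separate, and over the 2 experiments the smallest p would be 0.5.

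Among the other proteins of the tunnel and its exit, L4 and L17 line the tunnel wall, and L19, L25 and L26 surround the exit, where L25 receives factors that bind the nascent chain. The 10 genes of this group with 4 values had means from −0.79 to 0.30 with a median of 0.06, 6 above 0 and 4 below. The single-copy RPL25 (YOL127W) read 0.33, −0.18, −0.06 and 0.83 on arrays 1 to 4, with a mean of 0.23 ± 0.17 (adjusted p = 0.492). RPL19A (YBR084C-A) read 0.05, 0.01, 0.16 and 0.61, and RPL19B (YBL027W) read −0.02, −0.23, −0.09 and 0.56. RPL19A was higher than RPL19B on every array, by 0.15 ± 0.10 (SD, n = 4 arrays), although neither mean, 0.21 and 0.06, passed the test. RPL4A, RPL4B, RPL17A and RPL17B lay between −0.15 and 0.13. RPL26B had a mean of −0.19 ± 0.17.

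RPL26A and RPL22B were the members without a full set of values. RPL26A (YLR344W) was listed on array 3 alone, at 0.32, where its copy RPL26B read −0.54, so the pair rests on 1 array. RPL22B (YFL034C-A) read 0.69 on array 1, 0.05 on array 3 and 1.04 on array 4 and was empty on array 2. L22 is known for limiting the splicing of the RPL22B transcript. RPL22A (YLR061W) read −0.27, −0.81, −0.49 and 0.52 on arrays 1 to 4, with a mean of −0.26 ± 0.20 (adjusted p = 0.493). RPL22B was the higher copy on each of the 3 arrays that listed both, by 0.96, 0.54 and 0.52, read as RPL22A minus RPL22B of −0.96, −0.54 and −0.52. In a limma fit of 4882 genes with at least 1 array of each experiment, RPL22B had a mean of 0.62 ± 0.17, a 1.54-fold higher ratio that did not pass (limma adjusted p = 0.153). Experiment 1 was a lone mutant-in-Cy5 array in that mean, so the dyes were not balanced.

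L5 and L11 join the small ribosomal RNA of the large subunit in a separate particle before assembly. RPL5 (YPL131W), single-copy, read −0.14, −0.45, −0.42 and 0.55 on arrays 1 to 4, with a mean of −0.11 ± 0.18 (adjusted p = 0.747). RPL11A and RPL11B both had means of 0.03, and all 3 genes had both Cy5 arrays above both Cy3 arrays. L1 forms the stalk that contacts the leaving tRNA, and L12 lies at the base of the stalk that recruits translation factors. The 4 genes RPL1A, RPL1B, RPL12A and RPL12B all had means below 0, from −0.23 to −0.08. They also had wide dye differences, from 0.64 to 0.90, with medians of −0.56 and −0.52 on arrays 2 and 3 and of 0.58 on array 4.

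L2, L3 and L10 reach toward the peptidyl transferase centre and the tRNA sites, and L10 joins the subunit late, in the cytoplasm. RPL3 (YOR063W) read −0.05, −0.33, 0.14 and 0.11 on arrays 1 to 4, with a mean of −0.03 ± 0.17 (adjusted p = 0.932). RPL10 (YLR075W) read 0.23, −0.22, 0.58 and 0.12, with a mean of 0.18 ± 0.18 (adjusted p = 0.607). In experiment 1 both genes followed the order of the dyes, with array 1 above array 2 by 0.27 and 0.46. In experiment 2 array 3 lay above array 4 in both. RPL2A and RPL2B had Cy5 minus Cy3 differences of 0.70 and 0.61 over both experiments. The values of RPL3 and RPL10 on array 4, 0.113 and 0.115, and those of RPL4B and RPL15A, 0.113 and 0.114, lay within 0.002 of 0.114, the ratio that occurs most often there. In all, 60 of its 5403 values lay that close to 0.114, against 20 to 32 values around the most frequent ratio of the other arrays. Neither a change nor its absence can be read from array 4 for these 4 genes, nor can their dye difference in experiment 2. Only the most frequent ratio of each array was counted, and repeated ratios were not confined to array 4. CDC19 and TEF2, outside the lists, both read 0.128 on array 1, 0.065 on array 2 and 0.64 on array 3.

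L23, L24 and L30 touch the small subunit in the assembled ribosome, and L30 represses the splicing of its own transcript. RPL30 (YGL030W), single-copy, read 0.20, −0.14, −0.10 and 0.60 on arrays 1 to 4, with a mean of 0.14 ± 0.17 (adjusted p = 0.674). The 5 genes of this group had means from −0.11 to 0.14 and dye differences from 0.50 to 0.68, and all 5 had both Cy5 arrays above both Cy3 arrays. RPL24A tracked the member median most closely, deviating from it by −0.02 ± 0.02 (SD, n = 4 arrays).

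The remaining proteins, most of them on the solvent side, were kept as one group, and their 30 genes with 4 values ranged from −0.28 to 0.39 with a median of −0.05. RPL33B (YOR234C) had the highest mean of all members, at 0.28, −0.02, 0.32 and 0.99 on arrays 1 to 4 and 0.39 ± 0.19 on average (adjusted p = 0.313). Its copy RPL33A (YPL143W) read 0.21, −0.17, 0.04 and 0.81, a mean of 0.22 ± 0.18. RPL33B was the higher copy on every array, by 0.17 ± 0.08 on average, read as A minus B of −0.17. RPL27A (YHR010W) had a mean of 0.21 ± 0.17, with array values of 0.33, −0.07, −0.05 and 0.63.

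Of its single-copy genes, RPL29 (YFR032C-A) read 0.03, 0.25, −0.03 and 0.68 on arrays 1 to 4 (mean 0.23 ± 0.17, adjusted p = 0.472) and was the highest member on array 2. RPL32 (YBL092W) read 0.32, −0.08, 0.05 and 0.38 (mean 0.17 ± 0.16, adjusted p = 0.594). RPL28 (YGL103W), whose product is the target of cycloheximide resistance mutations, read 0.04, −0.33, −0.25 and 0.37 (mean −0.05 ± 0.17, adjusted p = 0.904). Over all 8 single-copy members the median mean was 0.15, with 5 above 0, and over the 48 duplicated members with 4 values it was −0.05, with 21 above 0. No difference between the 2 sets was tested.

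At the low end, both genes of L20 gave like ratios. RPL20A (YMR242C) read −0.10, −0.77, −0.76 and 0.50 on arrays 1 to 4 and RPL20B (YOR312C) −0.23, −0.71, −0.62 and 0.45, with means of −0.28 ± 0.17 and −0.28 ± 0.18 (adjusted p = 0.414 and 0.432). They differed by 0.003 on average, and RPL20A had the widest dye difference of all members, 0.97. RPL9A (YGL147C) read −0.11, −0.69, −0.76 and 0.51 (mean −0.26 ± 0.17), and RPL9B (YNL067W) −0.16, −0.28, −0.52 and 0.33 (mean −0.16 ± 0.16). Their difference, −0.10 ± 0.27 (SD, n = 4 arrays), changed sign between arrays. RPL21B (YPL079W) read −0.50, −0.53, −0.42 and 0.39 (mean −0.26 ± 0.19), and RPL21A (YBR191W) −0.13, −0.58, −0.45 and 0.50 (mean −0.16 ± 0.18). For this pair too the difference, 0.10 ± 0.19, was smaller than its spread.

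L15 and L8 contact ribosomal RNA from early in assembly, and their genes showed how far members could depart from the shared order. RPL15A (YLR029C) read −0.13, −0.25, 0.34 and 0.11 on arrays 1 to 4, and RPL15B (YMR121C) read −0.26, −0.11, 0.02 and 0.26. RPL15B did not follow the dyes, with a Cy5 minus Cy3 difference of 0.05, and was higher on both arrays of experiment 2 than on either array of experiment 1. For RPL15A the order in experiment 2 cannot be read, because its value on array 4 is the frequent ratio described above. RPL8A (YHL033C) read −0.09, −0.42, −0.41 and 0.38, in the usual order, whereas RPL8B (YLL045C) read −0.29, −0.27, −0.39 and 0.53, with array 1 at the level of array 2. In all, 11 of the 56 members had overlapping dye orientations: RPL3, RPL8B, RPL10, RPL15A, RPL15B, RPL16A, RPL19A, RPL21B, RPL29, RPL31A and RPL33B. For RPL3, RPL10 and RPL15A this rests on array 4 values at its frequent ratio. The widest dye differences after RPL20A were those of RPL14A, RPL9A and RPL27B, each 0.92. RPL14A (YKL006W) read 0.06, −0.47, −0.58 and 0.74, and RPL27B (YDR471W) read 0.27, −0.23, −0.43 and 0.90. Despite these swings their means were −0.06 and 0.13.

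Of the other duplicated genes of this group, RPL6A, RPL6B, RPL7A, RPL7B, RPL13A, RPL13B, RPL14B and RPL18B had means between −0.15 and 0.09. RPL7A (YGL076C) was the lowest of them, at −0.18, −0.63, −0.39 and 0.60 on arrays 1 to 4, and RPL6A (YML073C) the highest, at −0.06, −0.10, −0.13 and 0.65. In both genes arrays 1 to 3 were below 0 and array 4 alone was above it.

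Across the 23 pairs with both copies on all 4 arrays, the copies mostly gave like ratios. The absolute mean difference between A and B had a median of 0.06 and was under 0.1 in 18 pairs, while the SD of the difference over arrays had a median of 0.16. A kept the same sign against B on all 4 arrays in 5 pairs. RPL31, RPL19 and RPL12 were higher for A, and RPL16 and RPL33 were higher for B. RPL16A (YIL133C) read −0.15, −0.14, −0.26 and 0.54 and RPL16B (YNL069C) 0.36, −0.12, −0.24 and 0.77, so that their difference, −0.19 ± 0.23, came mainly from arrays 1 and 4. For each of the 5 pairs the exact sign-flip permutation test gave p = 0.125, which is the smallest it can give. Without array 4 the number of pairs with 1 sign on the remaining arrays was 11, and without array 1 it was 8. Near-identical copies can hybridise to each other's spots, and probe sequences were not used here, so like ratios of 2 copies cannot be told apart from shared signal. Pairs of small subunit genes gave 8 of 17 with 1 sign, and their widest difference was 0.46.

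**Figure D4:**
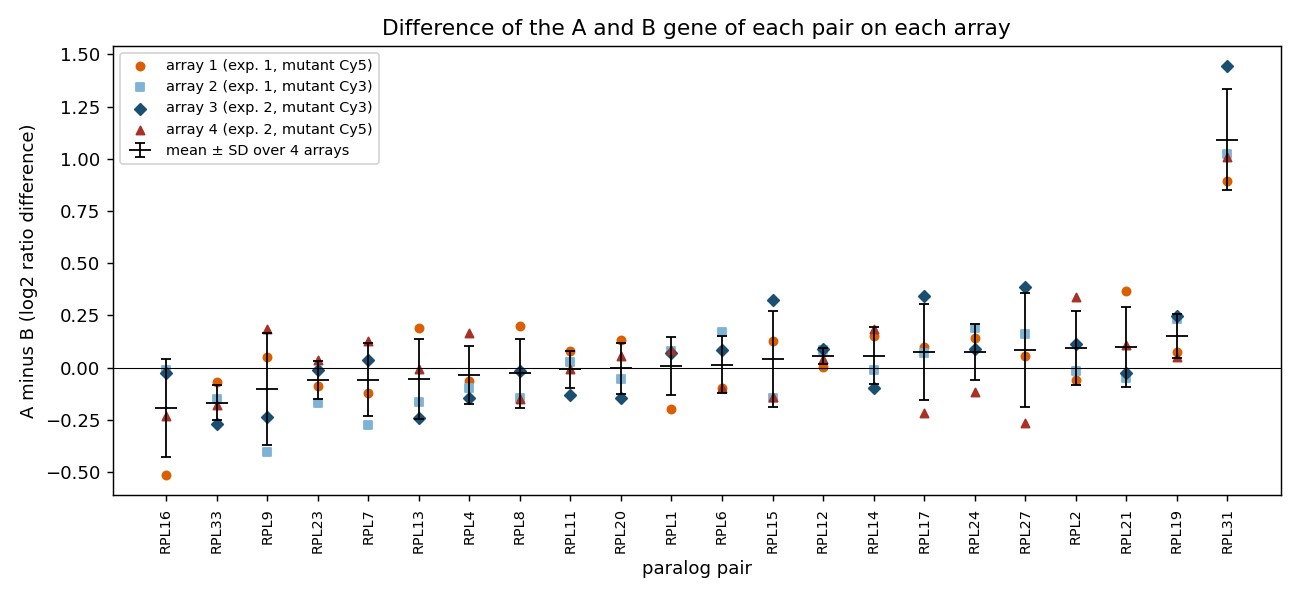
Each column is 1 of 22 of the 23 pairs with both copies on all 4 arrays, each point is the log2 ratio of A minus that of B on 1 array, and the bars give the mean ± SD over the 4 arrays. RPL31 stands apart at 1.09 ± 0.24, and 17 of the drawn pairs have a mean difference under 0.1 in size.

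Other genes of the ribosome behaved similarly from array to array. The remaining large subunit genes, RPL34A to RPL43B and the stalk genes RPP0 to RPP2B, had 18 of 23 listed genes on all 4 arrays, with medians of 0.11, −0.05, −0.10 and 0.65 on arrays 1 to 4. The 48 small subunit genes measured on all 4 arrays had medians of 0.13, −0.23, −0.20 and 0.57. Both Cy5 arrays lay above both Cy3 arrays in 14 of the 18 and in 40 of the 48. No gene of either list passed the test, and the list medians were 0.19 and 0.06. The largest mean of these large subunit genes was 0.42 for RPP1A, of the factor-recruiting stalk, and the lowest −0.20 for RPL40B.

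Factors that escort and mature the large subunit had another order over the arrays. In 18 of 20 with 4 values, among them the chaperones RRB1 of L3, SQT1 of L10 and ACL4 of L4, the medians were −0.19, −0.08, 0.13 and 0.73 on arrays 1 to 4. Array 4 was again the highest, for 17 of the 18 genes, but both Cy5 arrays lay above both Cy3 arrays in 4 of them, a share of 22.2% beside 30.8% of all genes. No gene of the list passed. NUG1, a GTPase of subunit export, had the largest mean, 0.45, and RIX1, of a processing complex, the lowest, −0.65. Of the 9 regulators of ribosomal protein genes 7 had 4 values, and none passed. RAP1 read −0.95, −1.03, −0.67 and −0.22 on arrays 1 to 4 (mean −0.72 ± 0.20, adjusted p = 0.113). The kinase genes SCH9 and TOR1 had means of −0.68 ± 0.21 and −0.64 ± 0.16 (adjusted p = 0.141 and 0.0976). SFP1 had the largest mean of the list, 0.09, and 4 of the 7 genes were below 0 on all 4 arrays, where 21.1% of all genes were.

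**Figure D5:**
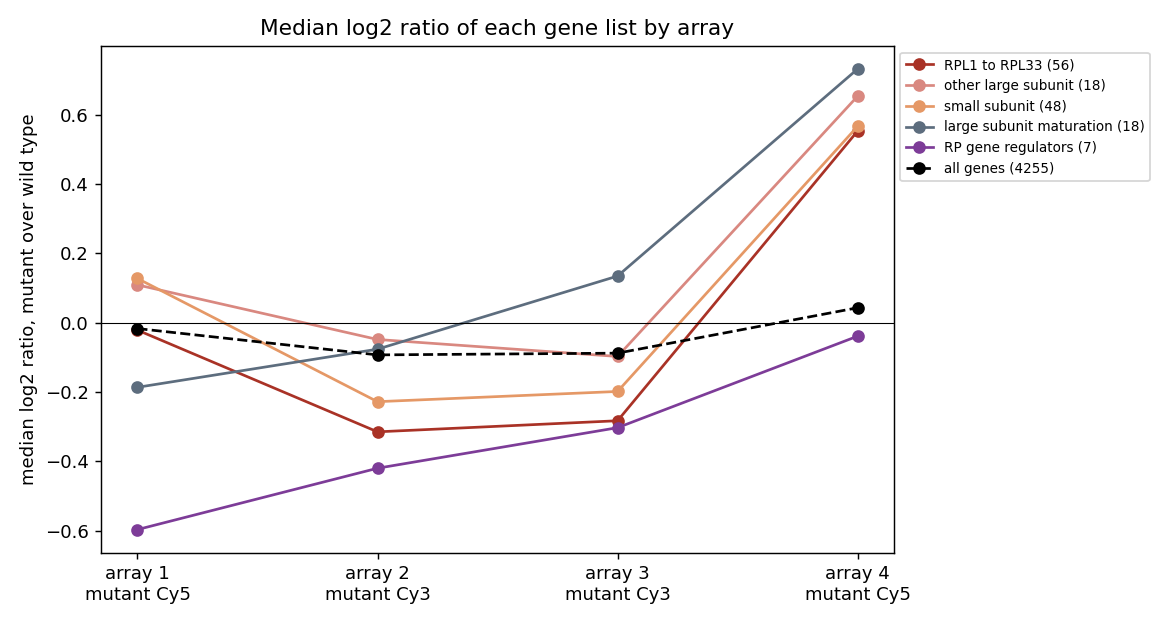
The vertical axis gives the median log2 ratio of mutant over wild type for each gene list on arrays 1 to 4, over genes with 4 values (numbers in brackets). The 3 ribosomal protein lists dip on arrays 2 and 3 and reach 0.55 to 0.65 on array 4, while the median of all genes stays between −0.09 and 0.04.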

How the data were processed

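Mutant and wild-type cDNA was hybridised on 4 dual-colour arrays. The deposited values are log2 ratios per array, processed by the authors. Per the labels, the authors set aside spots whose diameter was below 120 µm or whose fluorescence was below 100 units, and empty cells are read as such spots. The sources used here do not name the normalization, the centring or the log base. Symbols come from a RefSeq gene table (assembly R64), which held 5662 of the 6212 row names and all 58 members. Coordinates in that table were used only for the order of genes along chromosomes, and no sequences were used. The values of 1 member are not reported here, although counts and medians include it.

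Dye-swapped arrays were averaged within an experiment and the 2 means compared with 0 in genes on all 4 arrays, with limma 3.58.1 (lmFit, eBayes, 5.33 prior degrees of freedom) in R 4.3.3, at a Benjamini-Hochberg adjusted p of 0.05. The labels do not say which arrays form an experiment: the pairs share the wording of a description field. Only the word independent says that cultures were separate. The number of arrays limits the precision.

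Members and lists were chosen with earlier results of these data known. Genes named are members past the test, the 6 highest and 6 lowest means, the copies of the 6 most unequal pairs and single-copy members. From the other lists these are members past the test and the largest mean in each direction. Other names, the role groups and the dye contrast were chosen after values were seen.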

Additional observations from a re-analysis of the deposited data

Results flagged for a closer look

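In a set of 85 tests over the 4 arrays, covering 56 members, 23 pairs and 6 list medians, 7 had a value whose gap to its neighbour exceeded Dixon's critical value. Chance gives about 1 in 20 for a single test. The 85 tests share arrays and genes, so their count of 7 cannot be held against that rate. For 6 members that value was the one on array 4, above the other arrays: RPL6A at 0.65, RPL8B at 0.531, RPL13B at 0.563, RPL16A at 0.538, RPL21B at 0.394 and RPL31A at 0.816. The seventh was the pair RPL1, where RPL1A minus RPL1B was −0.2 on array 1 against 0.08, 0.07 and 0.09 on arrays 2 to 4.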

How the results depend on the processing

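No alternative called a member higher. As lower, 1 member, RPL31B, was called with the other pairing (−0.79, adjusted p = 0.0201), 4 separate arrays (0.0421), a random block (0.0360), centred arrays (−0.75, 0.0409) and scaled arrays (−0.80, 0.0468), and 0 to 1 with an array left out (−1.06 without array 4, −0.53 without array 3). It was not called with a dye term (0.0505), robust shrinkage (0.0591) or genes on at least 1 array of each experiment (0.0980). Over all genes, calls higher and lower were 255 and 473 with the other pairing, 163 and 250 with separate arrays, 185 and 292 with the block, 123 and 131 with centring, and 0 and 0 without array 3. There, limma gave 0 members at an unadjusted p under 0.05, and without array 4 it gave 11, all lower, beside 16.9% of all genes in that direction. The median of the members was 0.01 with centred arrays and −0.21 to 0.16 with an array left out. Pairs of 1 sign numbered 6 with at least 3 shared arrays and 5 to 11 with an array left out. The dye difference gave 0 called members in each of 3 fits, and 5 to 21 members at an unadjusted p under 0.05. Centring left 43 members with Cy5 arrays above Cy3 arrays, beside 21.6% of all genes.

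Centring turned the sign of RPL16A (0.0373) and RPL3 (0.00625), whose means are near 0. Leaving out 1 array turned the sign of some uncalled means, with ranges of −0.596 to 0.0357 for RPL20A, −0.578 to 0.0553 for RPL9A, −0.201 to 0.198 for RPL16A, −0.0575 to 0.444 for RPL16B, −0.107 to 0.217 for RPL19B, −0.372 to 0.0517 for RPL9B, −0.402 to 0.0737 for RPL21A, −0.101 to 0.0355 for RPL3, −0.356 to 0.13 for RPL5, −0.201 to 0.11 for RPL28 and −0.036 to 0.314 for RPL30. Means that kept their sign also moved, with ranges of 0.222 to 0.56 for RPL33B, 0.145 to 0.457 for RPL31A, 0.0578 to 0.408 for RPL29, 0.009 to 0.453 for RPL25, 0.0315 to 0.415 for RPL33A, 0.041 to 0.381 for RPL27A, −0.542 to −0.012 for RPL20B, −0.469 to −0.0595 for RPL21B, −0.513 to −0.00625 for RPL22A, 0.0932 to 0.32 for RPL19A, 0.06 to 0.291 for RPL10 and 0.0675 to 0.27 for RPL32. Of 192 and 96 values of named members under other settings and without an array, 185 and 82 kept their sign and side of the threshold. With an array left out, its partner stands alone for the experiment and the dyes are not balanced. The causes were not tested. Each ratio already pairs both strains on an array, so no further pairing of the strains was made. The motif search was not run, since no promoter sequences were used here. Signal over background could not be weighed.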

Other observations

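By gene order in the RefSeq table, 7 of the members lie next to another ribosomal protein gene, in 7 neighbouring pairs. RPL13A (mean log2 ratio 0.003) lies between RPS16B (0.06) and RPP1A (0.42). RPL18B and RPS19B read −0.13 and −0.13, and RPL21A and RPS9B −0.16 and −0.23. RPL24A and RPL30, the neighbours that are both members, read −0.03 and 0.14. RPS16A, beside RPL13B, did not have 4 values. These means have standard errors near those of the other members, and no test of neighbours was made.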
